A study of Homo sapiens with 6 samples.

Results

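The transcripts described here encode 6 transmembrane mucins (MUC1, MUC4, MUC13, MUC15, MUC16 and MUC20), 3 galectins (LGALS1, LGALS3 and LGALS8) and the galectin ligand LGALS3BP. These 10 genes were taken by symbol from the 37887 genes of the count table, to ask whether another mucin or a mucin-binding partner changed when MUC1-C was silenced. All libraries came from MDA-MB-436, a human triple-negative breast cancer (TNBC) cell line that lacks the estrogen and progesterone receptors and HER2 amplification. Both groups carried the same stably integrated vector, from which doxycycline induces an shRNA against MUC1. The control group (n = 3 libraries) received 0.1% DMSO as vehicle, and the shMUC1 group (n = 3) received 500 ng/ml doxycycline. The sample titles call the first group a control shRNA, whereas the treatment entries and the design describe vehicle-treated cells with the inducible MUC1 shRNA, and the second reading is used here. No doxycycline-treated cells with another shRNA were analysed here, so effects of the drug and of silencing cannot be told apart. How long the cells were treated, and whether the line was a clone, is not stated in the labels. The triplicates were cultures of 1 line, so p-values measure the spread between these libraries, which may be partly technical.

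Transmembrane mucins are heavily O-glycosylated proteins that form the outer barrier of epithelial cells. MUC1 is cleaved into an extracellular subunit and the membrane-spanning MUC1-C subunit, whose cytoplasmic tail binds kinases and transcription regulators. Galectins are small lectins that bind beta-galactosides on mucins, integrins and receptors, and carcinomas often lose the apical confinement of MUC1, which brings it together with receptor tyrosine kinases.

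MUC1 lies on the minus strand of chromosome 1 (chr1:155185824-155192916, GRCh38, GENCODE annotation). MUC16, the mucin that carries the CA125 antigen, lies on the minus strand at chr19:8848844-8981342. MUC4 and MUC20 are neighbours at chr3:195746765-195812277 (minus strand) and chr3:195720882-195741123 (plus strand), MUC13 lies at chr3:124905442-124953819 and MUC15 at chr11:26559033-26572233, both on the minus strand. LGALS1 (chr22:37675608-37679806), LGALS3 (chr14:55124110-55145413) and LGALS8 (chr1:236518000-236552981) lie on plus strands, and LGALS3BP (chr17:78971238-78980109) on the minus strand. The libraries were made with a stranded kit, but whether counting used the strand is not given in the sources used here. This matters most for LGALS8, where 21.6% of the exon bases also belong to HEATR1 on the opposite strand, and for MUC20, where 42.8% also belong to MUC20-OT1 on the same strand. For these 2 genes, reads of the overlapping partner cannot be told apart with certainty.

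The promoters of MUC1, the gene targeted by the shRNA, and of LGALS3BP, the member with an interferon-type motif, are shown first. Each window runs from 250 bases before to 50 bases after the RefSeq start (GRCh38.p14), 5′ to 3′ on the gene's strand, at chr1:155192866-155193165 for MUC1 (the first of its RefSeq windows) and chr17:78979874-78980173 for LGALS3BP. Capitals mark the E-box CACCTG, searched on both strands and therefore printed in LGALS3BP as its complement, and the interferon-response-like motif, 2 copies of GAAA spaced by 2 bases, also searched on both strands.
MUC1: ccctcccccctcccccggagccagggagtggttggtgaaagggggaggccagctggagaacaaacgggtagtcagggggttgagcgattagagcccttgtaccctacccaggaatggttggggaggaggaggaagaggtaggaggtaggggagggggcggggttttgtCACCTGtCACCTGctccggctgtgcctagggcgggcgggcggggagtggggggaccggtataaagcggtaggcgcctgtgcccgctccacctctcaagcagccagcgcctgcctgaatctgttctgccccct
LGALS3BP: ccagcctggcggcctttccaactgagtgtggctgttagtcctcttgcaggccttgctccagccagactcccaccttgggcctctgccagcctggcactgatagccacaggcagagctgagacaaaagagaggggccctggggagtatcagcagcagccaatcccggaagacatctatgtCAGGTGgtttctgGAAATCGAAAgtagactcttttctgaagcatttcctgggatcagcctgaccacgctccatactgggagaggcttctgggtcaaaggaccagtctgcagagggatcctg
The MUC1 window holds 2 E-boxes, starting 82 and 75 bases before the start site, and the LGALS3BP window holds 1 E-box and 1 interferon-response-like motif 71 and 58 bases before it. Of 35116 RefSeq windows of the same length, 20.6% hold the E-box, 3.57% the interferon-response-like motif and 7.66% the STAT-type motif TTCNNNGAA, which is the same on both strands. The E-box is also in both MUC16 windows and in 2 of 3 LGALS8 windows, genes that did not pass the test described below, and the STAT-type motif is in the window of MUC4, which had 0 counts. The LGALS3 window (chr14:55129002-55129301, plus strand) has none of the 3 motifs and is 78.3% G and C, and the MUC13 window also has none. Windows were found for 7 of the 10 genes, and not for LGALS1, MUC15 or MUC20. A match describes letters in a window and is not evidence of binding.

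The second set of sequences shows a 7-base word in the MUC1 transcript and in a galectin transcript. The word ATCAGTA was chosen with earlier results of these data known, so its share among changed genes is a description, and the shRNA sequence itself was not used here. Capitals mark the word, 5′ to 3′ on the transcript strand.
MUC1: gacacagttcaATCAGTAtaaaacggaag
LGALS8: ataagcaatgaATCAGTAaaggactgatc
The MUC1 site (chr1:155187772-155187778, minus strand) is exonic in 16 of 29 annotated transcripts and falls in the coding sequence of 13 of them, in the 3′ UTR of 2 and in 1 noncoding transcript. The LGALS8 site (chr1:236551330-236551336, plus strand) lies in the 3′ UTR of 3 of 28 transcripts. MUC16 has 4 sites, all in the coding sequence of 1 transcript, MUC4 has 2 and MUC13 has 1. No transcript of LGALS1, LGALS3, LGALS3BP, MUC15 or MUC20 holds the word. Among tested genes with an annotated 3′ UTR, the longest 3′ UTR held the word in 12.4%. Of those, 44.3% were called lower against 22.3% of the others, and 19.7% were called higher against 29.1%. These sets were not matched for 3′ UTR length and no other word was compared, so a part of the word itself was not tested.

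Among the 10 genes, LGALS1, LGALS3, LGALS3BP and LGALS8 lay above all 6 mucins per exon length in every library. Levels between genes were compared as library-scaled counts per kilobase of exon (CPM per kb, with CPM as counts per 1e+06), where the length is the union of all annotated exons. RefSeq places the MUC16 start sites beyond the GENCODE gene, so the exon length of MUC16 depends on the annotation. In control cells, LGALS1, a galectin with a single carbohydrate-recognition domain that is abundant in mesenchymal cells, was highest at 166 ± 7.09 CPM per kb (SD, n = 3). LGALS3, the chimeric galectin with a collagen-like tail, followed at 62.0 ± 1.41 CPM per kb, LGALS3BP at 14.4 ± 0.634 and LGALS8 at 3.95 ± 0.256. The ranges of these 4 genes did not touch one another. MUC1 (0.823 ± 0.0850, range 0.731 to 0.899) and MUC16 (0.772 ± 0.0608, range 0.721 to 0.839) had overlapping control levels per length. In shMUC1 cells every MUC1 library (0.387 to 0.552 CPM per kb) lay below every MUC16 library (0.638 to 0.784). The order of the 4 galectin-group genes was the same in both groups, with LGALS1 at 130 ± 6.24 and LGALS3 at 84.1 ± 2.94 CPM per kb in shMUC1 cells.

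**Figure D1:**
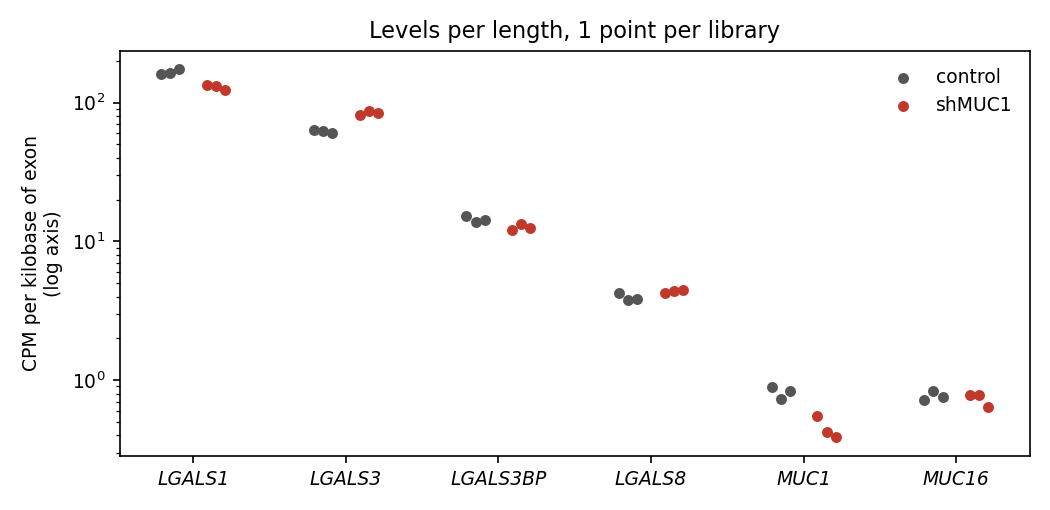
Level of each gene per exon length (CPM per kb, log axis) in the control and shMUC1 libraries, 1 point per library. LGALS1 and LGALS3 lay above MUC1 and MUC16 in every library, and MUC1 and MUC16 overlapped in the control libraries but not in the shMUC1 libraries.

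MUC1 was reported first, as the target of the shRNA. MUC1 had 93, 84 and 102 counts in the control libraries and 72, 51 and 34 in the shMUC1 libraries. Scaled to library size these were 4.24, 3.45 and 3.95 CPM against 2.61, 1.98 and 1.83 CPM, so that every shMUC1 library was below every control library. The level of MUC1 was 1.79-fold lower, a log2 difference of -0.84 (SE 0.214, 95% interval -1.28 to -0.41), with an edgeR quasi-likelihood adjusted p of 0.00119. The transcript was thus lowered but still present in all 3 shMUC1 libraries, and its low count sets the width of the interval. Because these were bulk libraries, fewer cells with MUC1 transcripts and less transcript per cell cannot be told apart.

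The other mucins named at the outset gave no called rise to set against the fall of MUC1. MUC16 had 693, 896 and 855 counts in control and 950, 881 and 520 in shMUC1 libraries, or 31.6, 36.8 and 33.1 CPM against 34.4, 34.2 and 27.95 CPM. The groups overlapped, with replicate 3 lowest in the shMUC1 group. The log2 difference was -0.07 (SE 0.0761, 95% interval -0.22 to 0.09, edgeR adjusted p = 0.511), and its sign turned without shMUC1 replicate 3 (0.0227) or without control replicate 2 (0.000296).

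MUC4, a partner of ERBB2, the gut-enriched MUC13 and MUC15 had 0 counts in all 6 libraries. In the shallowest library, a count of 0 leaves room for a level of at most 0.161 CPM, counting error only. This bound takes each count as independent. It would be higher if both reads of a pair were counted, and 68.8 to 70.5% of counts from 1 to 20 were even. MUC20, described as an interactor of the MET receptor, had 1 count in control replicate 2 and 3 counts in shMUC1 replicate 2, and 0 in the others. These 4 genes were too low to test. MUC20-OT1, which shares exon bases with MUC20, had 17, 18 and 19 counts in control and 27, 31 and 14 in shMUC1 libraries.

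The summed level of the 5 mucins other than MUC1 was almost wholly MUC16. It was 33.8 ± 2.69 CPM in control and 32.2 ± 3.70 CPM in shMUC1 libraries (SD, n = 3), and an exact two-sided permutation test of the difference gave p = 0.7 (adjusted 0.7 over the 7 per-library values compared). This test cannot give a p under 0.1 with 3 libraries against 3. Without shMUC1 replicate 3 the difference turned from -1.63 to 0.603 CPM. MUC1 made up 10.4% ± 1.65 of the summed MUC1 and MUC16 counts in control and 6.22% ± 0.790 in shMUC1 libraries. The groups did not overlap on this share (exact two-sided permutation p = 0.1, the smallest possible, adjusted 0.117). The share was chosen with the gene values known and restates the fall of MUC1 beside MUC16. It holds the same information as the MUC1 to MUC16 ratio given below, so it is not separate support.

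**Figure D2:**
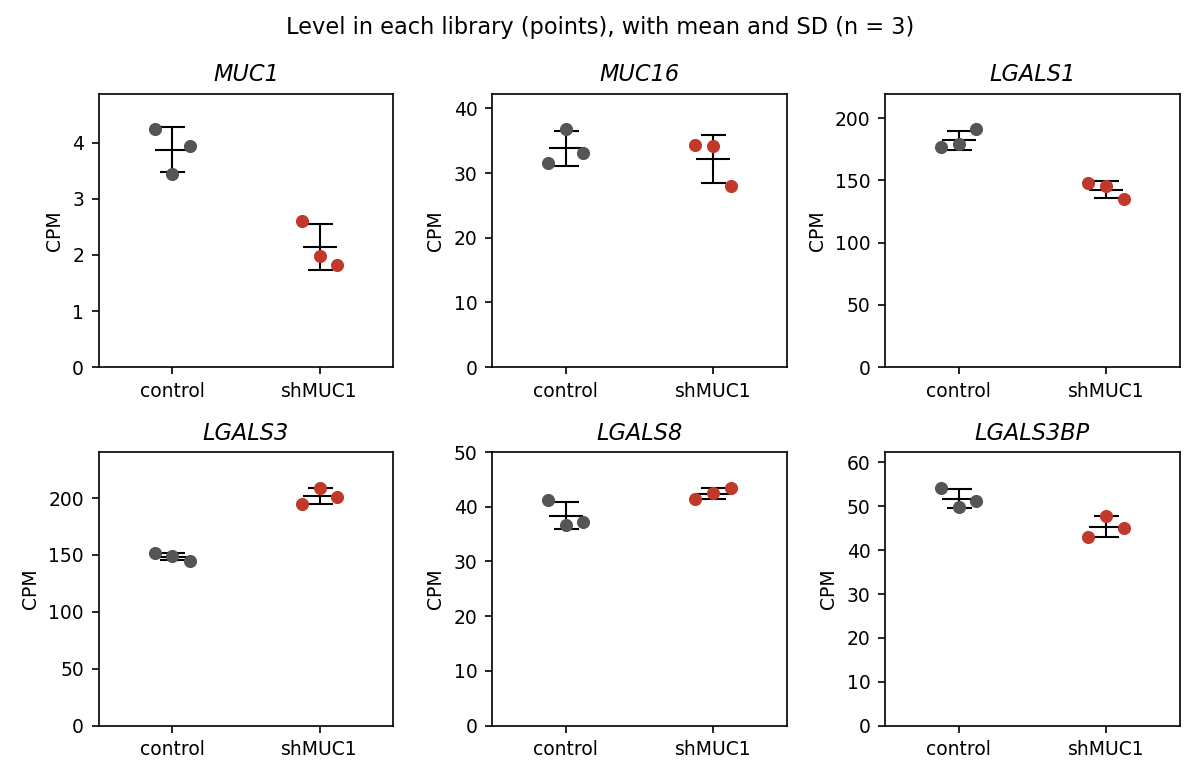
CPM of the 6 genes with enough counts to test, 1 point per library, with the mean and SD (n = 3), each panel on its own axis from 0. MUC1, LGALS1 and LGALS3BP were lower in every shMUC1 library, LGALS3 and LGALS8 were higher, and MUC16 overlapped.

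The galectins moved in opposite directions. LGALS3, which binds N-glycans of MUC1 and of growth factor receptors, had 3320, 3639 and 3741 counts in control and 5390, 5385 and 3734 in shMUC1 libraries. These were 151, 149 and 145 CPM against 195, 209 and 201 CPM, with no overlap. LGALS3 rose by 0.44 on the log2 scale (SE 0.0375, 95% interval 0.36 to 0.52), or 1.36-fold, with an edgeR adjusted p of 1.77e-12.

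LGALS1 had 3868, 4366 and 4936 counts in control and 4083, 3739 and 2508 in shMUC1 libraries. In CPM the control libraries were at 176, 179 and 191 and the shMUC1 libraries at 148, 145 and 135, again without overlap. LGALS1 fell by 0.35 (SE 0.0403, 95% interval -0.43 to -0.27), or 1.28-fold, with an edgeR adjusted p of 2.43e-09.

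LGALS8, a tandem-repeat galectin that marks damaged endosomes for autophagy, had 903, 891 and 962 counts in control and 1142, 1093 and 809 in shMUC1 libraries. The levels were 41.2, 36.6 and 37.2 CPM against 41.3, 42.4 and 43.5 CPM, so that control replicate 1 lay just under the lowest shMUC1 library. The log2 difference was 0.15 (SE 0.0633, 95% interval 0.02 to 0.27) and did not pass the threshold (edgeR adjusted p = 0.0550). Without control replicate 1 it was 0.20 and passed (adjusted p = 0.0188), and over all alternatives the adjusted p ran up to 0.195.

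LGALS3BP, a secreted glycoprotein of the scavenger receptor family that binds LGALS3, had 1189, 1212 and 1325 counts in control and 1190, 1232 and 837 in shMUC1 libraries. In CPM, control libraries were at 54.2, 49.8 and 51.3 and shMUC1 libraries at 43.1, 47.8 and 45.0, with the groups close but separate. LGALS3BP fell by 0.19 (SE 0.0588, 95% interval -0.31 to -0.07, edgeR adjusted p = 0.00659). The call was lost without control replicate 1 (adjusted p = 0.0555) and without shMUC1 replicate 1 (adjusted p = 0.0689), and over all alternatives the adjusted p ran from 0.00192 to 0.0689.

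**Figure D3:**
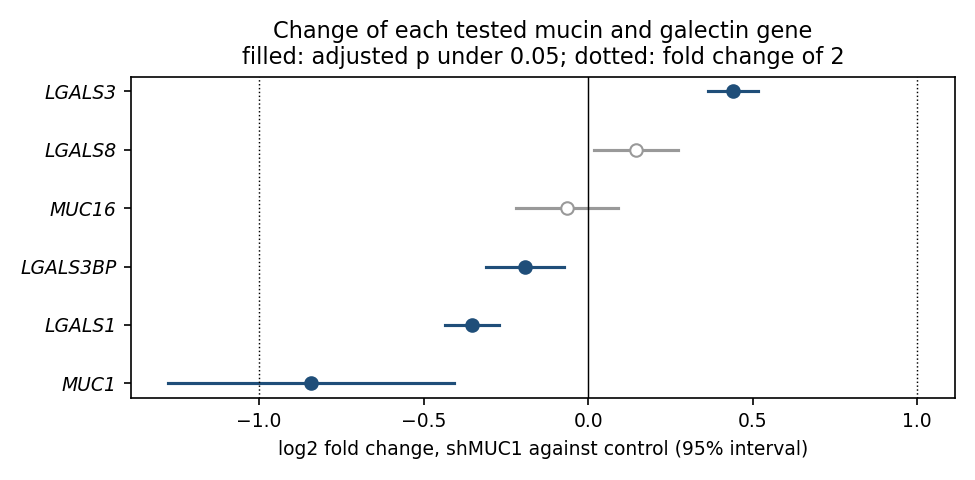
Log2 fold change (shMUC1 against control) of the 6 tested genes with the 95% interval of the edgeR fit. The intervals of MUC1, LGALS1 and LGALS3BP lie below 0, that of LGALS3 lies above 0, that of LGALS8 starts at 0.02 and that of MUC16 spans 0.

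Of the 10 genes, 6 were tested, of which 1 passed an adjusted p of 0.05 as higher (LGALS3) and 3 as lower (MUC1, LGALS1 and LGALS3BP). Across the 15355 genes tested, 25.2% were called higher and 23.6% lower, so calls of this kind were common in the whole table. None of the 6 was also past a 2-fold change, against 5.95% of all tested genes, and 1 of them, MUC1, was past 1.5-fold, against 13.8%. Without shMUC1 replicate 1, MUC1 also passed 2-fold (log2 difference -1.02). The groups did not overlap for 5 of the 6, against 54.8% of all tested genes. The median log2 difference of the 6 was -0.13, beside 0.00058 over all tested genes.

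The shift between LGALS3 and LGALS1 was measured within each library, where library size cancels out. The choice of these ratios, and of the ratios, share and sum in the next paragraph, was made with the gene values known. The ratio of LGALS3 to LGALS1 counts was 0.858, 0.833 and 0.758 in control and 1.32, 1.44 and 1.49 in shMUC1 libraries. LGALS1 counts thus exceeded LGALS3 counts in the 3 control libraries, and the reverse held in the 3 shMUC1 libraries. The log2 ratio went from -0.29 ± 0.0938 to 0.50 ± 0.0896 (SD, n = 3), a difference of 0.79 (exact two-sided permutation p = 0.1, the smallest possible, adjusted 0.117). Per exon length LGALS1 stayed above LGALS3 in both groups, so the exchange of order is one of read counts.

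LGALS3 against its ligand LGALS3BP gave a log2 count ratio of 1.52 ± 0.0564 in control and 2.15 ± 0.0258 in shMUC1 libraries, a difference of 0.63 with the same permutation p. LGALS3 made up 40.3% ± 1.25 of the summed counts of the 3 galectins in control and 52.1% ± 1.19 in shMUC1 libraries. The summed level of the 3 galectins was 369 ± 3.98 CPM and 387 ± 9.11 CPM, a difference of 17.5 CPM without overlap (exact permutation p = 0.1, adjusted 0.117). MUC1 against MUC16 gave a log2 count ratio of -3.13 ± 0.264 in control and -3.92 ± 0.195 in shMUC1 libraries, also without overlap.

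**Figure D4:**
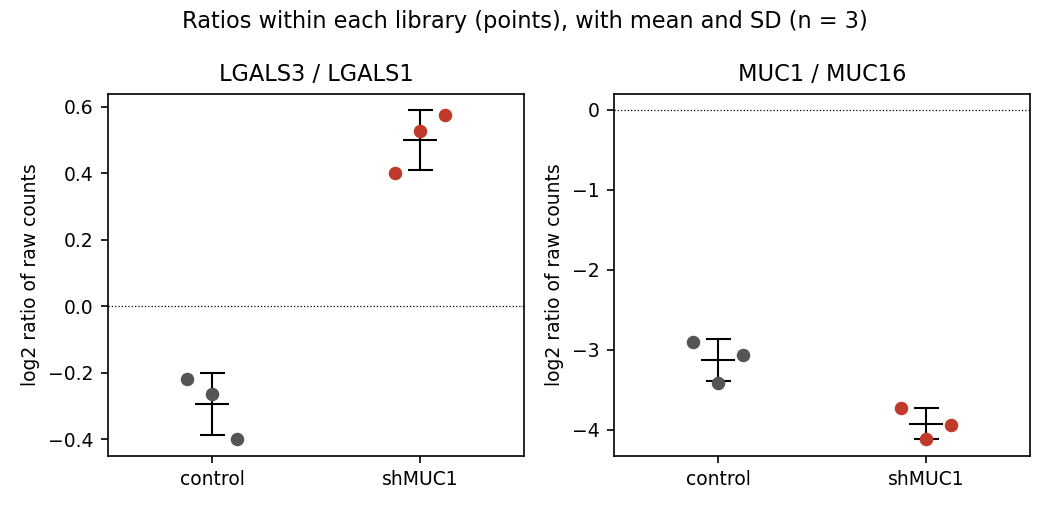
Log2 ratio of LGALS3 to LGALS1 counts (left) and of MUC1 to MUC16 counts (right), 1 point per library, with the mean and SD (n = 3) and a dotted line at 0. LGALS3 to LGALS1 lay below 0 in the 3 control libraries and above 0 in the 3 shMUC1 libraries, and MUC1 to MUC16 was lower in every shMUC1 library.

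The remaining mucin and galectin genes ranged from 0 counts to CPM values above those of LGALS1 and LGALS3. These CPM were not divided by exon length, so they do not rank the genes by level. Over all tested genes, 25.2% were called higher and 23.6% lower. Of 12 other surface mucins and sialomucins, 2 had 0 counts in every library, 6 were tested and 1 passed the test: PODXL, the podocalyxin sialomucin, went from 467 ± 8.26 to 356 ± 12.8 CPM and fell by 0.40 (SE 0.0322, edgeR adjusted p = 5.83e-13). CD164, the sialomucin endolyn, was at 432 ± 11.5 and 436 ± 10.2 CPM, with a log2 difference of 0.01 (95% interval -0.05 to 0.08, adjusted p = 0.756). MCAM, a cell adhesion glycoprotein, had a log2 difference of -0.11 (adjusted p = 0.0821) and passed without shMUC1 replicate 3 (-0.16), as PDPN, the podoplanin gene, did without shMUC1 replicate 1 (-0.78, against -0.55 with all libraries). The median of the 6 was -0.27. Of 9 secreted mucins, 4 had 0 counts in every library and 1, OVGP1, was tested and not called (0.27, adjusted p = 0.707). MUC5AC, a gel-forming airway mucin that was below the count filter, had 6, 10 and 14 counts in control and 4, 2 and 0 in shMUC1 libraries, and was called lower when the filter was dropped or without control replicate 1, shMUC1 replicate 1 or shMUC1 replicate 2.

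Of 13 other galectin genes, 8 had 0 counts throughout and 3 were tested. LGALSL, a galectin-related protein, went from 33.0 ± 0.552 to 38.1 ± 4.36 CPM and rose by 0.20 (SE 0.0719, edgeR adjusted p = 0.0180), a call lost without control replicate 3 (0.18), shMUC1 replicate 2 (0.20) or shMUC1 replicate 3 (0.13, adjusted p = 0.163), over a range of adjusted p from 0.00190 to 0.163. LGALS9, the galectin that binds the T cell receptor TIM-3, had 20, 12 and 12 counts in control and 6, 2 and 4 in shMUC1 libraries and fell by 1.85 (SE 0.587, edgeR adjusted p = 0.00862). The LGALS9 call rests on few counts, was lost without control replicate 1 (-1.49, adjusted p = 0.0766) or shMUC1 replicate 2 (-1.49, adjusted p = 0.0657), and its reads may be shared with the near-identical LGALS9B and LGALS9C. LGALS9C had 8 counts in shMUC1 replicate 2, where LGALS9 was lowest at 2, and 0 in every other library. Whether these were reads of LGALS9 was not tested. Without shMUC1 replicate 2 neither of the 2 genes was called, without control replicate 1, control replicate 3 or shMUC1 replicate 3 only 1 was, and the median of the 3 tested genes was -0.72.

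A list drawn up for MUC1 cleavage and shedding, made of protease and gamma-secretase subunit genes, split in direction. Whether each of them acts on MUC1 in these cells was not tested. All 10 were tested, with 2 higher, 3 lower and a median log2 difference of -0.01. Over all tested genes, 25.2% were called higher and 23.6% lower. FURIN, a proprotein convertase, rose by 0.25 (48.2 ± 1.55 to 57.2 ± 1.56 CPM, edgeR adjusted p = 0.000241), and NCSTN, the nicastrin subunit of gamma-secretase, rose by 0.32 (244 ± 9.10 to 305 ± 8.97 CPM, adjusted p = 6.41e-10). ADAM9, a membrane metalloprotease, fell by 0.27 (135 ± 3.23 to 112 ± 1.41 CPM, adjusted p = 4.01e-07). MMP14, a membrane-bound matrix metalloprotease, fell by 0.40 (adjusted p = 0.0355) and PSENEN, another gamma-secretase subunit, by 0.47 (adjusted p = 0.0487), calls that were lost in 7 and 8 of 15 alternatives. Without control replicate 1, control replicate 3, shMUC1 replicate 1 or shMUC1 replicate 2 the list held 3 calls. ADAM17, a known sheddase of MUC1, was at 85.6 ± 0.367 and 82.1 ± 1.06 CPM, with a log2 difference of -0.06 (adjusted p = 0.269), and ADAM10 had a log2 difference of 0.04 (adjusted p = 0.394).

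Among 20 genes listed for partners of the MUC1-C tail, all tested, 5 were higher and 7 lower, with a median of -0.01. Whether each encoded protein binds the tail in these cells was not tested. The shares over all tested genes were 25.2% higher and 23.6% lower. JUP, the gamma-catenin of desmosomes and adherens junctions, rose by 1.003 (42.6 ± 1.62 to 85.4 ± 3.90 CPM, SE 0.0529, edgeR adjusted p = 3.15e-18) with every shMUC1 library above every control library. CTNNB1, the related beta-catenin, went the other way and fell by 0.58 (490 ± 9.38 to 329 ± 9.99 CPM, SE 0.0319, adjusted p = 1.25e-17). EGFR fell by 0.35 (395 ± 6.21 to 310 ± 4.25 CPM, adjusted p = 7.43e-12) and PIK3R1, the regulatory subunit of phosphoinositide 3-kinase, by 0.30 (adjusted p = 0.000894). The adaptor GRB2 rose by 0.24 (adjusted p = 4.84e-05) and the transcription factor STAT3 by 0.19 (adjusted p = 9.72e-06).

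Galectin binding partners were also divided, with 5 of 15 higher, 5 lower and a median of -0.04, beside 25.2% higher and 23.6% lower over all tested genes. ITGB4, the hemidesmosomal integrin beta chain, rose by 0.64 (130 ± 12.3 to 203 ± 5.01 CPM, SE 0.0452, edgeR adjusted p = 1.05e-14), whereas ITGA3, an integrin alpha chain for laminin, fell by 0.61 (473 ± 8.26 to 310 ± 13.5 CPM, SE 0.0332, adjusted p = 7.23e-18). CALCOCO2, the autophagy receptor recruited by LGALS8, rose by 0.23 (adjusted p = 0.000741) and TFRC, the transferrin receptor, by 0.19 (adjusted p = 2.51e-07). NRP1, a receptor bound by LGALS1, fell by 0.30 (adjusted p = 0.000761), and the GTPase HRAS by 0.30 (adjusted p = 0.0366). The HRAS call was lost in 5 of 15 alternatives, among them the fits without control replicate 1 (-0.21), shMUC1 replicate 2 (-0.20, adjusted p = 0.228) and shMUC1 replicate 3 (-0.31), and its adjusted p ran from 0.00977 to 0.228.

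Of 10 genes listed for making or capping glycans related to galectin binding, 9 were tested, 4 were higher and 1 lower, with a median of 0.06. Whether any of them raises or lowers galectin binding in these cells was not tested. The shares over all tested genes were 25.2% higher and 23.6% lower. ST3GAL1, which sialylates the core O-glycan, rose by 0.40 (65.0 ± 3.61 to 85.5 ± 4.22 CPM, SE 0.0506, edgeR adjusted p = 2.56e-08). C1GALT1, which makes that core, rose by 0.24 (adjusted p = 3.76e-05), GCNT1, which branches it, by 0.18 (adjusted p = 0.000364) and the galactosyltransferase B4GALT1 by 0.14 (adjusted p = 0.000285). MGAT5, which makes the N-glycan branch preferred by LGALS3, fell by 0.24 (96.8 ± 2.47 to 81.7 ± 2.76 CPM, adjusted p = 1.93e-05). MGAT2 had 1 to 4 counts a library and was not tested.

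**Figure D5:**
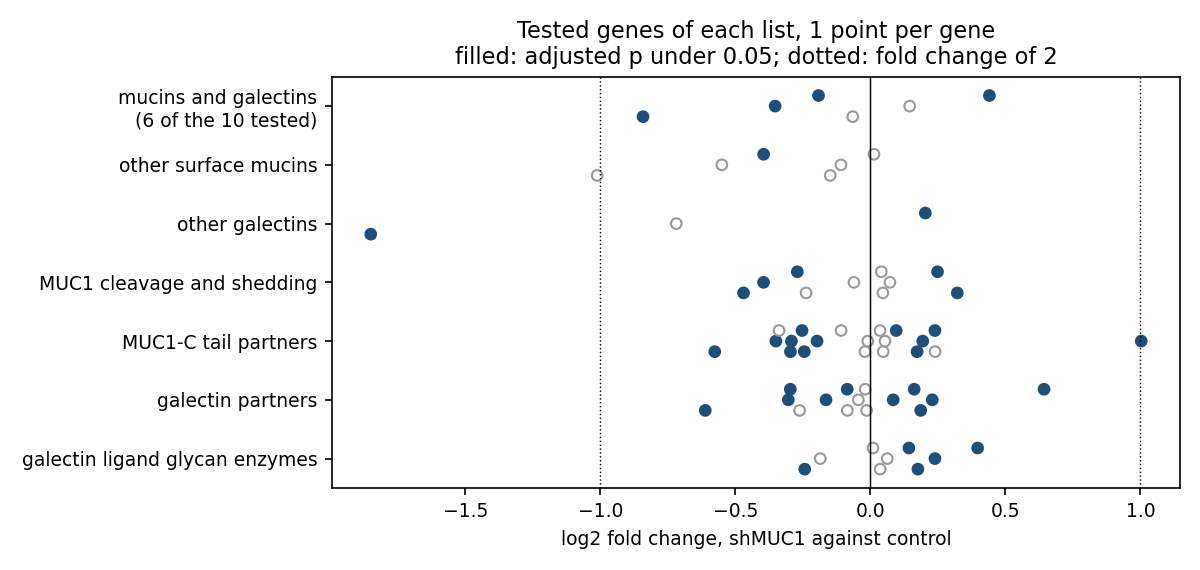
Log2 fold change of each tested gene (1 point a gene) in the mucin and galectin group and in 6 related lists, filled where the adjusted p was under 0.05, with dotted lines at a 2-fold change. Filled points lie on both sides of 0 in all lists except the other surface mucins, where PODXL is the only one, and the secreted mucins are not drawn because only OVGP1 was tested.

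Cell state markers differed between the groups along with these genes. Of 9 epithelial markers, 4 were tested and all rose: EPCAM by 2.12, ELF3 by 2.09, KRT18 by 1.02 and KRT8 by 0.95 on the log2 scale. GRHL2 was at 0 counts in every library, and KRT19 and RAB25 were at 0 in the shMUC1 libraries. The summed epithelial level was 544 to 578 CPM in control and 1100 to 1141 CPM in shMUC1 libraries, set almost wholly by KRT8 and KRT18, which have many processed pseudogenes. Of 5 mesenchymal markers, VIM fell by 0.78, ZEB1 by 0.97, SPARC by 1.97 and CDH2 by 0.22, while FN1 rose by 0.42, and their summed level was 1846 to 1878 CPM in control and 1823 to 1868 CPM in shMUC1 libraries. Their part in the changes of LGALS1, LGALS3 and the other genes was not tested.

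For the labelled cell type, ERBB2 was at 44.7 CPM in control and 39.0 CPM in shMUC1 libraries, and ESR1 and PGR were below the count filter. Leukocyte markers summed to 3.37 to 3.69 CPM in control and 6.13 to 9.40 CPM in shMUC1 libraries, with CD3E at 0 in all 6. The 2 leukocyte markers tested were called higher. CD14 rose by 1.08 (mean 2.99 to 6.28 CPM, edgeR adjusted p = 2.93e-06) and PTPRC, at few counts, by 1.59 (adjusted p = 0.0113). Endothelial markers summed to 1.74 to 2.10 CPM in control and 0.544 to 0.914 CPM in shMUC1 libraries. PECAM1, the 1 endothelial marker tested, fell by 1.94 (edgeR adjusted p = 0.000320). Library totals ran from 18678307 to 27825546 counts, with shMUC1 replicate 3 the shallowest and shMUC1 replicate 1 the deepest.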

How the data were processed

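RNA from 6 MDA-MB-436 cultures was sequenced, 3 per group. The authors deposited raw read counts per gene, with no normalization. The submitters' processing notes name CASAVA 1.8.2, STAR 2.7.9a, featureCounts, DESeq2 1.24.0 and GRCh38.p7. The annotation release and strand setting are not given in the sources used here.

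Counts were fitted across all genes that passed edgeR's expression filter with TMM scaling and the quasi-likelihood test (edgeR 4.0.16, R 4.3.3), with group as the only term. The two-sided p-values were adjusted by Benjamini-Hochberg, and a gene was called at an adjusted p under 0.05. CPM used the TMM-scaled library sizes. Values with 1 number per library, such as ratios, were compared by exact permutation. Exon lengths and word sites came from the GENCODE annotation of GRCh38, and promoters from RefSeq. The members and lists were chosen with earlier results of these data known. Named were all 10 members, of each list the called genes (the 3 largest rises and 3 largest falls where over 5 were called), and any cell type marker. CD164, MCAM, PDPN, MUC3A, MUC12, MUC17, MUC5AC, MGAT2, ADAM10, ADAM17 and OVGP1 were named after their values were seen.

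Within each group, the pairwise chi-square of the counts per degree of freedom was 2.79 to 5.55, so no 2 libraries agreed within sampling noise. Since 68.8 to 70.5% of counts from 1 to 20 were even, halved counts were one alternative. The others were DESeq2 size factors, library totals, no filter, DESeq2 1.42.0, a mean of 50 or more counts, a replicate block, limma-voom (limma 3.58.1), libraries thinned to the smallest total, a 1.5-fold threshold and each library left out. The edgeR, DESeq2 and limma-voom fits were tested on simulated counts, and the other steps were not.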

Additional observations from a re-analysis of the deposited data

How the results depend on the processing

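MUC1, LGALS1 and LGALS3 kept their direction and their call in 15 of 15 alternatives each. Leaving out 1 library at a time gave log2 differences of -1.02 to -0.75 for MUC1, -0.38 to -0.31 for LGALS1 and 0.41 to 0.47 for LGALS3, and -0.11 to 0.0227 for MUC16, which was never called. MUC16 was also above 0 (0.000296) without control replicate 2. The same fits gave 1 to 2 genes of the 10 called higher (LGALS8 as the second, without control replicate 1), 2 to 3 called lower and 0 to 1 past 2-fold, and MUC1 was the 1 gene past the 1.5-fold threshold. The summed level of the mucins other than MUC1 differed by -2.70 to 0.603 CPM. Called genes ranged from 1 to 2 of the other surface mucins, 0 to 1 of the secreted mucins, 0 to 2 of the other galectins and 3 to 5 of the cleavage and shedding genes. Among the other alternatives, 2 other surface mucins were called with library totals, a mean of at least 50 counts, halved counts or thinned libraries (MCAM in each), 1 secreted mucin with no filter (MUC5AC), 1 other galectin with a mean of at least 50 counts, halved counts or thinned libraries, and 3 cleavage and shedding genes with no filter or with DESeq2. The cause was not tested. Same-numbered libraries did not deviate together (correlations 0.0179, -0.0308 and -0.0361), so no pairing by number was detected. Whether such libraries shared a culture or preparation batch was not tested. With the replicate block, MUC1 differed by -0.86 (adjusted p = 0.00115) and among the genes named PSENEN was no longer called (adjusted p = 0.0609). MUC4, MUC13, MUC15 and MUC20 could not be tested at this depth.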
